A study of Homo sapiens with 11 samples.

Results

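The genes described here are NLRP3, PYCARD, CASP1, NOD1, NOD2 and CARD9, 6 human genes that sense bacterial, fungal or danger signals inside the cell or relay such signals. They were chosen by name, and all 6 were among the 594 endogenous probes of the deposited table. Their levels were measured in THP-1 cells, an established line from a human monocytic leukaemia, by NanoString nCounter hybridization, which counts colour-barcoded probes on RNA without amplification. Monocytes were the untreated line. Macrophages were made from the same line with the phorbol ester PMA for 3 h and 24 h of recovery. Cells of both states were then held for 24 h in charcoal-stripped medium, which lacks steroid hormones, and were given, for 6 h, either vehicle or the synthetic glucocorticoid dexamethasone (Dex) at 100 nM. The groups were Mono_Control (monocytes with vehicle, n = 3), Mono_Dex (monocytes with Dex, n = 3), Mac_Control (macrophages with vehicle, n = 3) and Mac_Dex (macrophages with Dex, n = 2). Mac_Dex has 2 samples because the authors dropped the other one, which lacked the FKBP5 increase and clustered with macrophage vehicle samples. Its removal was thus based on a measured Dex response. The model is a single leukaemic line, and the labels do not say that replicates were separate cultures. The p-values therefore rest on sample-to-sample spread that could be purely technical.

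NLRP3, PYCARD and CASP1 encode the parts of the NLRP3 inflammasome. The sensor NLRP3 assembles with the adaptor PYCARD (also called ASC), which recruits the protease caspase-1, and active caspase-1 cuts the precursors of interleukin 1 beta and interleukin 18. NOD1 and NOD2 are cytosolic receptors for fragments of bacterial peptidoglycan and signal through the kinase RIPK2 to NF-kB and MAP kinases. CARD9 is an adaptor that joins C-type lectin receptors for fungal walls to BCL10 and MALT1. In monocytes and macrophages, glucocorticoids are known for lowering many inflammatory genes through the glucocorticoid receptor.

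The deposited values are normalized signal on a linear scale, called units here. Monocyte samples had a total endogenous signal of 372345 to 420466 units, and macrophage samples one of 742895 to 889658. FKBP5, the treatment check, encodes a co-chaperone of steroid receptors. It was between 1205 and 1259 units in Mono_Control and between 24832 and 24990 in Mono_Dex. In macrophages it was between 407 and 623 in Mac_Control, and 37306 and 38036 in Mac_Dex. It is no independent check in Mac_Dex, because the dropped sample was one that lacked this increase. Of 9 monocyte and macrophage markers in the table, 6 had a mean of at least 20 units in each monocyte group and 8 in each macrophage group. Of the monocyte groups, CD14 passed only in Mono_Control, with a mean of 53.5 units against 18.3 in Mono_Dex. CD163 passed only in Mono_Dex, with 39.3 units against 1 in Mono_Control. In macrophages CD14 was 188 units in Mac_Control and 43.9 in Mac_Dex, and CD163 was 177 and 653. Summed, the 9 markers gave 2615 to 3040 units per monocyte sample and 17287 to 19524 per macrophage sample. The scavenger receptor MSR1 was at most 3.26 units in monocytes and at least 6074 in macrophages, and made up a large part of the macrophage sum. The Fc receptor FCGR2A went the other way, from a mean of 1165 units in Mono_Control to 425 in Mac_Control, and the mannose receptor MRC1, a common macrophage marker, was at most 2.71 units in every sample. The 8 T-cell markers summed to at most 21.0 units in any sample. Of 6 NK-cell markers NCAM1 alone passed 20 units, but at a high level, with group means of 1602 and 1516 units in Mono_Control and Mono_Dex and 3452 and 2791 in Mac_Control and Mac_Dex. In bulk RNA, fewer cells of a kind and less RNA per cell cannot be told apart.

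NLRP3 moved in opposite directions with Dex in the 2 cell states, and so did NOD2, while PYCARD, CASP1, NOD1 and CARD9 did not pass the test in either state with the values as deposited. Median-centring each sample moved the number that rose to 2 of the 6 in monocytes and 5 of the 6 in macrophages, while over all 379 probes it moved the number that rose from 64 to 104 and from 85 to 152. Each probe was tested with limma on log2(value + 1) in a single fit of all 4 groups, over 379 endogenous probes. The filter kept probes that reached a mean of 20 units in some group, and all 6 genes passed it. A Benjamini-Hochberg adjusted p under 0.05 was called. In monocytes 2 of the 6 fell, where 22.2% of all tested probes fell and 39.1% were called in either direction. None of the 6 rose in limma, where 16.9% of tested probes rose, and 2 of the 6 rose at an unadjusted p under 0.05. In macrophages 2 of the 6 rose, where 22.4% of tested probes rose and 47.5% were called. None fell, adjusted or at an unadjusted p under 0.05 in limma, where 25.1% of tested probes fell. The median log2 change of the 6 was -0.16 in monocytes and 0.19 in macrophages, beside -0.03 and -0.03 over all 379 probes. Vehicle and Dex samples did not overlap for 4 of the 6 genes in monocytes and 3 in macrophages, beside 54.6% and 58.6% of tested probes.

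**Figure D1:**
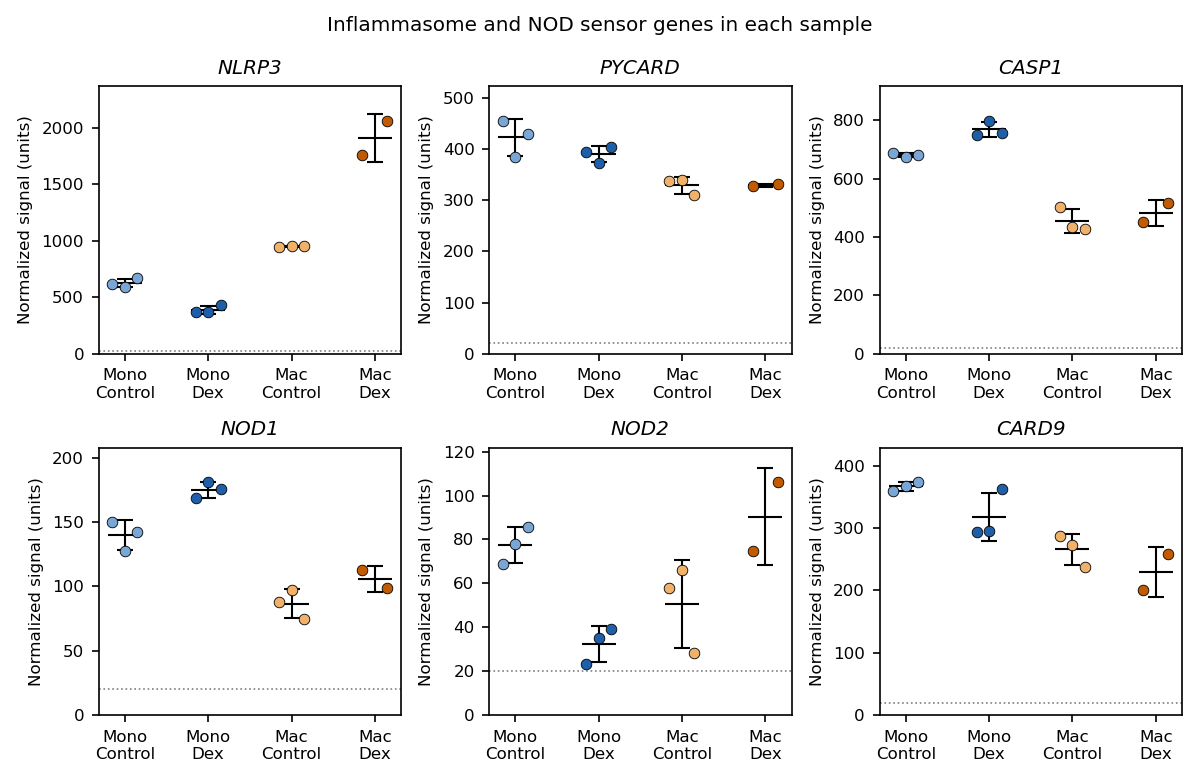
Normalized signal of each gene in every sample, with a linear axis from 0, a point per sample, and the group mean and SD as bars (n = 3, and n = 2 in Mac_Dex). The dotted line is the floor of 20 units. NLRP3 is lowest in Mono_Dex and highest in Mac_Dex, and the other genes apart from NOD2 are lower in macrophages than in monocytes whatever the treatment.

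NLRP3, the inflammasome sensor, read 613, 593 and 666 units in Mono_Control and 364, 364 and 427 in Mono_Dex. In macrophages it read 947, 954 and 949 units in Mac_Control and 1756 and 2061 in Mac_Dex. No group overlapped another, and the order of the means ran from Mac_Dex (1908 ± 216, SD, n = 2) through Mac_Control (950 ± 3.57, SD, n = 3) and Mono_Control (624 ± 37.6, SD, n = 3) to Mono_Dex (385 ± 36.4, SD, n = 3). In monocytes NLRP3 fell by 0.70 on the log2 scale (SE 0.08, limma adjusted p = 6.22e-06), with Dex lower in every sample. In macrophages it rose by 1.00 (SE 0.09, limma adjusted p = 3.54e-07), to 2.01 times the vehicle mean. The difference of the responses was 1.70 (SE 0.12, 95% confidence interval 1.45 to 1.95, limma adjusted p = 2.69e-07), and 14 of the 379 tested probes had a more positive difference. These 3 calls held under each alternative run, with the fall between -0.77 and -0.55, the rise between 0.87 and 1.22 and the difference between 1.57 and 1.81.

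NOD2, the receptor for muramyl dipeptide, had the fewest net counts of the 6 in each sample except Mac_Dex replicate 5, where NOD1 had 64.8 and NOD2 69.8. It read 69.0, 78.1 and 85.6 units in Mono_Control and 23.3, 35.1 and 39.1 in Mono_Dex, and these groups did not overlap. It read 57.8, 66.2 and 28.2 units in Mac_Control and 74.8 and 106 in Mac_Dex, where the groups did not overlap either, and Mac_Control replicate 5 lay well below the other Mac_Control samples. NOD2 fell 2.39-fold in monocytes (log2 change -1.26, SE 0.30, limma adjusted p = 0.00387), a call that held under each alternative. In macrophages it rose 1.78-fold (log2 change 0.89, SE 0.34, limma adjusted p = 0.0437), and this call ended in 9 of 24 alternatives. It ended without Mac_Control replicate 5 (0.52, limma adjusted p = 0.142) and without Mac_Dex replicate 5 (0.64, limma adjusted p = 0.239). It also ended, at limma adjusted p from 0.0504 to 0.0593, without Mono_Control replicate 1, 3 or 6 or Mono_Dex replicate 3, samples that enter that comparison only through the shared estimate of the spread. The difference of the responses was 2.14 (SE 0.45, limma adjusted p = 0.00329), with 7 of 379 probes more positive, and it stayed called in each alternative, between 1.57 and 2.39.

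Each value is a sample factor times a background-subtracted count, so the net count behind it, without that background, can be estimated. NOD2 rested on 31.6 to 45.8 net counts in Mono_Dex and 23.1 to 47.6 in Mac_Control, and on at most 130.0 in any sample. Counting error alone is then at least 14.5% to 20.8% of a Mac_Control value. NLRP3 rested on 377 to 1357 net counts, with a counting error of at least 2.7% to 5.1%. The NOD2 values of Mono_Dex replicate 2 and Mac_Control replicate 5 came close to the floor of 20 units, while the negative control probes reached at most 15.6.

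The promoter windows of these 2 genes are shown because their transcripts went opposite ways in the 2 states. Each is the 250 bases before a RefSeq start on GRCh38.p14, read 5′ to 3′ on the gene's strand, and NOD2 has 2 such windows. The rule for showing a promoter was a called difference of the Dex responses. Capitals mark matches, on either strand, to an NF-kB pattern of GGG, any 5 bases and CC.
NLRP3, chr1:247415923-247416172, plus strand: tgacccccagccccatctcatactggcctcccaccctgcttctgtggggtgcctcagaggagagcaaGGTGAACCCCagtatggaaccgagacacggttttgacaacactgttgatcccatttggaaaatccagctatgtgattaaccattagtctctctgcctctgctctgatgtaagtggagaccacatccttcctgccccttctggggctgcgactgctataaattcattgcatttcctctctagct
NOD2 upstream window, chr16:50696698-50696947, plus strand: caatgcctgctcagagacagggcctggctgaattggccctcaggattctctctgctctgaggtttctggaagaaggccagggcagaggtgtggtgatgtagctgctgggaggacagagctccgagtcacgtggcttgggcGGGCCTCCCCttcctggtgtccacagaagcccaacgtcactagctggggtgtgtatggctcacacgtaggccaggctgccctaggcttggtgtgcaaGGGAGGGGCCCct
NOD2 downstream window, chr16:50699130-50699379, plus strand: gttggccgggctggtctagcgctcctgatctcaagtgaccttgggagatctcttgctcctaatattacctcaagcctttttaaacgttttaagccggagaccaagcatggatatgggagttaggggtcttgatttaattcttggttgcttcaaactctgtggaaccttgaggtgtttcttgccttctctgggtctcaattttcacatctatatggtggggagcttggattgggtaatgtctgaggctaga

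The NLRP3 window held 1 match to the NF-kB pattern, from base -183 to -174, counting the last base before the start as -1. The upstream NOD2 window held 3 matches, from -110 to -101 and, overlapping each other, from -13 to -4 and -12 to -3, and the downstream NOD2 window held none. The pattern is loose and occurs in 54.4% of all 35116 windows of the table. A match to AGAACA, a single arm of the glucocorticoid response element, was in none of the 6 windows of the 5 genes with an entry (NLRP3, NOD1, NOD2, PYCARD and CARD9), and 12.4% of all windows hold it. The full element, AGAACA and TGTTC with any 3 bases between them, was in 4 of the 35116 windows and in none of the 6. The AP-1 site TGANTCA (6.6% of windows) and the PU.1 site AGGAAGT (7% of windows) were also in none of the 6. The base composition of the windows ran from 46.4% GC in the downstream NOD2 window and 51.6% in NLRP3 to 74% in NOD1, beside a median of 58% over all windows.

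PYCARD, the inflammasome adaptor, read 456, 385 and 431 units in Mono_Control and 395, 374 and 404 in Mono_Dex, and the groups overlapped. It read 338, 340 and 311 units in Mac_Control and 328 and 332 in Mac_Dex, which also overlapped. Its log2 change with Dex was -0.11 in monocytes (95% confidence interval -0.29 to 0.06, limma adjusted p = 0.318). In macrophages the change was 0.00 (95% confidence interval -0.19 to 0.19, limma adjusted p = 0.987), so a change as large as that of NLRP3 lay outside the interval. Centring each sample on its median gave PYCARD a macrophage change of 0.23 (limma adjusted p = 0.0487).

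CASP1, the protease of the inflammasome, read 687, 675 and 682 units in Mono_Control and 751, 798 and 757 in Mono_Dex, higher in each Dex sample. The log2 change was 0.17 (SE 0.07, limma adjusted p = 0.0776). It passed the test without Mac_Control replicate 1 (0.17, limma adjusted p = 0.0331), when samples were centred on the housekeeping list (0.20, limma adjusted p = 0.0102) or their median (0.32, limma adjusted p = 0.00117), with quantile normalization (0.21, limma adjusted p = 0.00487), and when monocytes were fitted alone (0.17, limma adjusted p = 0.00373). In macrophages it read 501, 436 and 428 units with vehicle and 450 and 515 with Dex. These overlapped (log2 change 0.08, limma adjusted p = 0.416), and the call was gained with median-centring (0.31, limma adjusted p = 0.00263) and quantile normalization (0.22, limma adjusted p = 0.00528).

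NOD1, the receptor for diaminopimelic acid-containing peptides, read 150, 127 and 142 units in Mono_Control and 168, 181 and 176 in Mono_Dex, with no overlap. The log2 change was 0.32 (SE 0.14, limma adjusted p = 0.0784), and it passed the test with each of the other scalings (0.35 to 0.47, limma adjusted p = 0.0321 to 0.00412), without a variance trend (limma adjusted p = 0.0427) and with monocytes alone (limma adjusted p = 0.0114). In macrophages NOD1 read 88.1, 97.4 and 74.5 units with vehicle and 113 and 98.4 with Dex, again without overlap, at a log2 change of 0.29 (SE 0.15, limma adjusted p = 0.137). Median-centring gave 0.51 (limma adjusted p = 0.0116). NOD1 and NOD2, which share an architecture of caspase-recruitment and leucine-rich-repeat domains, thus differed in the sign of their monocyte estimates. The difference of the Dex responses of NOD1 between the states was -0.04 (95% confidence interval -0.48 to 0.41, limma adjusted p = 0.929).

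CARD9, the adaptor of the C-type lectin pathway, read 360, 368 and 373 units in Mono_Control and 294, 296 and 363 in Mono_Dex, where replicate 6 lay inside the vehicle range. It read 287, 272 and 238 units in Mac_Control and 201 and 258 in Mac_Dex, with overlap. Its log2 change was -0.21 in monocytes (limma adjusted p = 0.173) and -0.22 in macrophages (limma adjusted p = 0.184). The monocyte change passed with monocytes fitted alone (limma adjusted p = 0.0365) and the macrophage change without Mac_Dex replicate 5 (-0.39, limma adjusted p = 0.0348). The difference of the responses was 0.00 (95% confidence interval -0.37 to 0.37, limma adjusted p = 0.99).

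**Figure D2:**
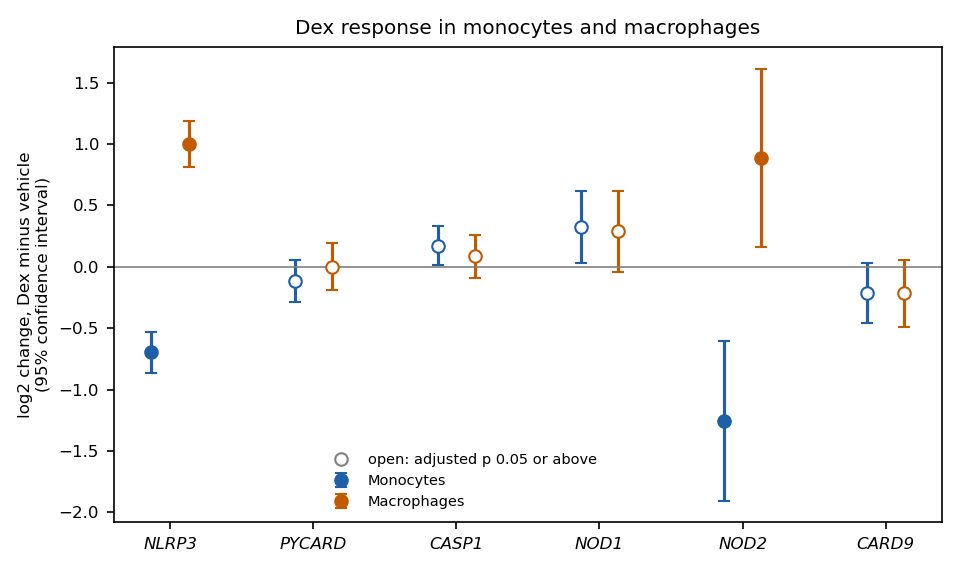
Log2 change with Dex (Dex minus vehicle, on the log2(value + 1) scale) of each gene in monocytes and macrophages. Points are limma estimates, bars their 95% confidence intervals, and open points have an adjusted p of 0.05 or above. NLRP3 and NOD2 have intervals on opposite sides of 0, and the intervals of the other genes overlap between the states.

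The difference of the Dex responses was called for 2 of the 6 genes, NLRP3 and NOD2, both more positive in macrophages, where 13.5% of tested probes were called more positive and 25.9% in either direction. None was called more negative, adjusted or at an unadjusted p under 0.05 in limma, where 12.4% of tested probes were. Of the 4 genes not called, the differences lay between -0.09 for CASP1 and 0.11 for PYCARD. A ratio of 2 probes within a sample does not depend on that sample's factor, and the log2 ratio of NLRP3 to its adaptor PYCARD kept the 4 groups apart. It lay between 0.43 and 0.63 in Mono_Control, -0.12 and 0.08 in Mono_Dex, 1.49 and 1.61 in Mac_Control, and 2.42 and 2.63 in Mac_Dex. The log2 ratio of NLRP3 to CASP1 likewise went from -0.19 to -0.03 in Mono_Control down to -1.13 to -0.83 in Mono_Dex. In macrophages its group mean went from 1.07 with vehicle up to 1.98 with Dex, again with no overlap. The ratio of NOD2 to NOD1 was lower in each Mono_Dex sample (-2.86 to -2.17) than in each Mono_Control sample (-1.12 to -0.71), but in macrophages the Mac_Dex values (-0.60 and 0.11) overlapped those of Mac_Control (-1.40 to -0.56).

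**Figure D3:**
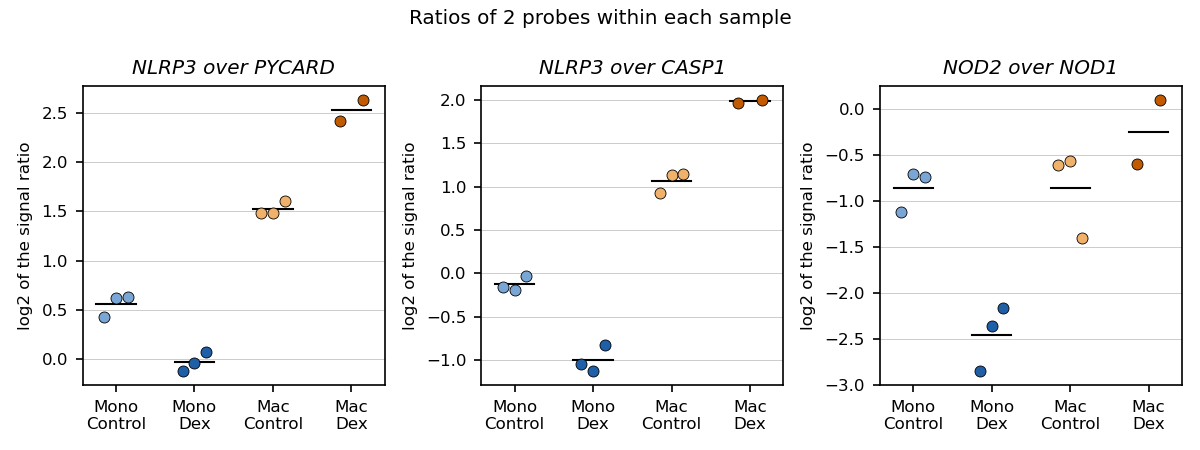
Log2 of the signal ratio of 2 probes within each sample, with a point per sample and a line at the group mean. A ratio is compared between groups and not with another ratio. NLRP3 over PYCARD and NLRP3 over CASP1 are lowest in Mono_Dex and highest in Mac_Dex without overlap of groups, while Mac_Control and Mac_Dex overlap for NOD2 over NOD1.

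Between the cell states, 5 of the 6 genes were lower in macrophages with vehicle and NLRP3 was higher, as the values were deposited. In limma 1 rose and 5 fell, where 65.2% of tested probes rose, 19.5% fell and 84.7% were called. The samples of the 2 states did not overlap for any of the 6, as for 85% of tested probes. CASP1 was lower in macrophages (455 ± 40.0 against 681 ± 5.97 units, SD, n = 3 each, log2 change -0.58, SE 0.07, limma adjusted p = 3.69e-06), NOD1 1.61-fold lower (-0.69, limma adjusted p = 0.000327), CARD9 1.38-fold lower (-0.47, limma adjusted p = 0.00164) and PYCARD 1.28-fold lower (-0.36, limma adjusted p = 0.000848). NOD2 was 1.53-fold lower (-0.69, limma adjusted p = 0.0476), and this call ended without any of Mono_Control replicates 1, 3 and 6, Mono_Dex replicates 3 and 6 or Mac_Control replicate 5 (limma adjusted p from 0.0516 to 0.262; -0.32 without Mac_Control replicate 5). It also ended with a pseudocount of 0.5 (limma adjusted p = 0.0505), without the filter (0.0981) and without a variance trend (0.0743). NLRP3 was 1.52-fold higher (0.61, SE 0.08, limma adjusted p = 4.72e-06). The monocyte and macrophage markers and NCAM1 also differed between the states, as given above, and their part in these differences was not tested.

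The size of these state differences rests on the scaling of the samples, and for NLRP3 with vehicle the sign does too. Sample factors of monocytes lay between 0.659 and 0.965 and those of macrophages between 1.21 and 1.52. The median log2 difference over all tested probes was 0.72 as deposited, 0.47 with the housekeeping list, -0.20 after median-centring and -0.29 with quantile normalization. Relative to the deposited median, PYCARD, CASP1, NOD1, NOD2 and CARD9 lay 1.08 to 1.41 lower and NLRP3 lay 0.11 lower. Centring on the housekeeping list left NLRP3 higher in macrophages (0.36, limma adjusted p = 0.000663), while median-centring and quantile normalization gave -0.31 (limma adjusted p = 0.000635) and -0.32 (limma adjusted p = 5e-04). The other 5 genes stayed lower and called under each scaling. The ratios of NLRP3 to PYCARD and CASP1 do not use the scaling and were higher in each Mac_Control sample than in each Mono_Control sample. Because PYCARD and CASP1 were themselves lower under each scaling, these ratios do not give the sign of the NLRP3 difference.

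With Dex in both states, NLRP3 and NOD2 were higher in macrophages and the other genes lower. In limma 2 of the 6 rose and 4 fell, where 61.7% of tested probes rose, 17.9% fell and 79.7% were called, and the states did not overlap for any of the 6, beside 85.8% of probes. NLRP3 was 4.96-fold higher (log2 change 2.31, SE 0.09, limma adjusted p = 5.49e-12) and stayed between 1.24 and 2.42 under the alternatives. NOD2 was 2.78-fold higher (1.46, SE 0.34, limma adjusted p = 0.00123), a call that ended with median-centring (0.62, limma adjusted p = 0.0585) and quantile normalization (0.48, limma adjusted p = 0.17). CASP1 was 1.59-fold lower, NOD1 1.66-fold lower, CARD9 1.38-fold lower and PYCARD 1.19-fold lower (limma adjusted p from 2.9e-06 for CASP1 to 0.0223 for PYCARD). With the label numbers fitted as a replicate block, the NOD1, CARD9 and PYCARD calls ended (limma adjusted p = 0.0576, 0.119 and 0.23). No Mono_Dex sample shares its number with a Mac_Dex sample, so the block pairs none of them and links these groups only through the vehicle samples. The PYCARD call ended without Mono_Dex replicate 2 or 6 or without either Mac_Dex sample (limma adjusted p from 0.0548 to 0.0767), and the CARD9 call without Mac_Dex replicate 1 (-0.29, limma adjusted p = 0.074). CARD9, CASP1, PYCARD and NOD1 thus had both monocyte groups above both macrophage groups, and within a state the vehicle and Dex samples overlapped except for NOD1 in both states and CASP1 in monocytes. For NOD2, Mac_Dex overlapped Mono_Control, and Mac_Control overlapped Mono_Dex.

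**Figure D4:**
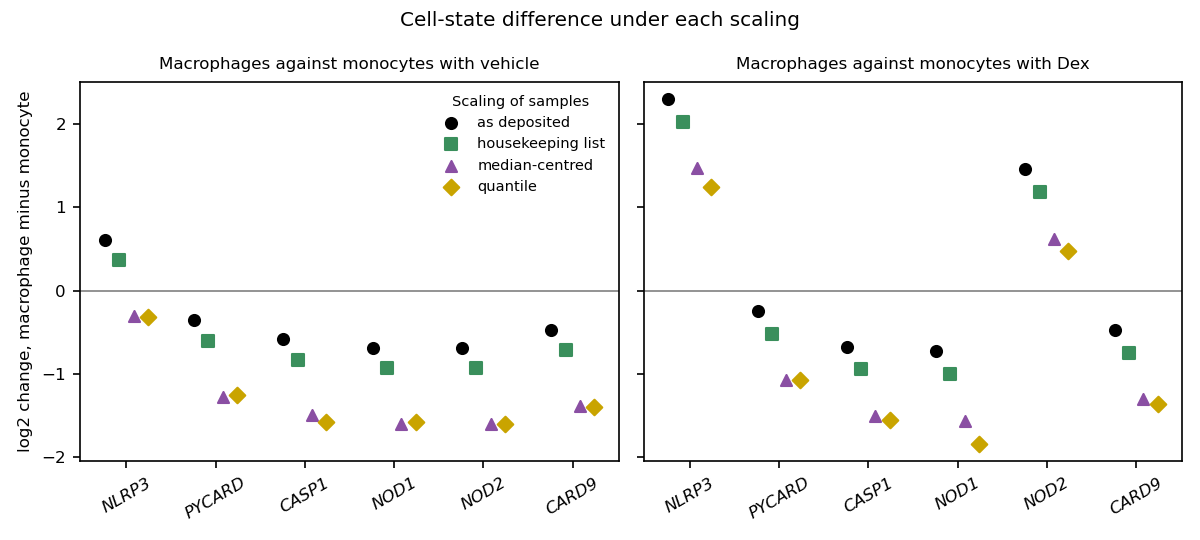
Log2 difference between macrophages and monocytes (macrophage minus monocyte, on the log2(value + 1) scale) for each gene with vehicle and with Dex, under the deposited scaling and 3 others. NLRP3 with vehicle lies above 0 under the deposited and housekeeping scalings and below 0 under the others. PYCARD, CASP1, NOD1 and CARD9 lie below 0 under all 4.

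The genes around the inflammasome held both rises and falls. Of 25 sensors, substrates and receptors listed for it, 11 were in the table and 10 were tested. In monocytes 2 rose and 3 fell, and in macrophages 5 rose and 4 fell, with a median log2 change of -0.05 and 0.00. Over all tested probes, 16.9% rose and 22.2% fell in monocytes, and 22.4% rose and 25.1% fell in macrophages. IL1B, the precursor cut by caspase-1, was between 68.1 and 92.8 units in Mono_Control and between 7.78 and 12.7 in Mono_Dex, below the floor, so it was at least 4.0-fold lower (limma adjusted p = 6.52e-09). It went from 4479 to 5066 units in Mac_Control down to 340 and 452 in Mac_Dex, 12.3-fold lower (log2 change -3.63, limma adjusted p = 2.15e-09). The sensor NLRP3 and the substrate IL1B thus changed in opposite directions in macrophages and in the same direction in monocytes.

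IL18, the other caspase-1 substrate, had responses of opposite sign to those of NLRP3 in each state. It was 112 to 137 units in Mono_Control and 166 to 191 in Mono_Dex, a rise of 0.51 on the log2 scale (limma adjusted p = 0.00434), and 174 to 207 units in Mac_Control and 136 to 156 in Mac_Dex (-0.36, limma adjusted p = 0.0478). The macrophage call of IL18 ended in 14 of 24 alternatives, while the difference of its responses, -0.87 (limma adjusted p = 0.00371), ended in 1 of 23. Among the receptors, IL1R1, which transmits the interleukin 1 signal, rose at least 2.61-fold in monocytes to 52.3 ± 9.04 units (SD, n = 3) and 5.07-fold in macrophages to 882 ± 154 (SD, n = 2). The decoy receptor IL1R2 rose 4.54-fold in macrophages, from 34.8 ± 4.81 to 158 ± 21.8 units. The antagonist IL1RN fell at least 2.69-fold in monocytes and 3.46-fold in macrophages. IFI16, a nuclear sensor of DNA, fell 1.68-fold in monocytes (limma adjusted p = 0.00073). In macrophages IL1A fell from 22.9 units to 2.85 (limma adjusted p = 0.00145) and the receptor chain IL18R1 rose from 4.87 to 22.0 (limma adjusted p = 0.0140). One group mean of each lay under the floor and the other just above it.

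Of 26 genes listed for NOD signalling, 17 were in the table and 15 were tested. The relay kinase RIPK2 is not analysed here. In monocytes 2 rose and 2 fell (median log2 change -0.03), and in macrophages 4 rose and 3 fell (0.19). The shares of all tested probes that rose and fell were 16.9% and 22.2% in monocytes and 22.4% and 25.1% in macrophages. The number of the list that rose went to 6 in monocytes and 10 in macrophages with median-centring, to 6 and 8 with quantile normalization and to 4 and 7 with the housekeeping list. Over all 379 probes the number that rose, 64 and 85 as deposited, went to 104 and 152, 78 and 103, and 73 and 96 with these scalings. The adaptor TRAF3 fell from 486 ± 22.8 units in Mono_Control to 368 ± 25.7 in Mono_Dex (SD, n = 3) and likewise from 569 ± 19.1 to 338 ± 58.4 in macrophages (SD, n = 3 and 2). ATG7, an enzyme of autophagosome formation, fell 1.47-fold in monocytes and 1.43-fold in macrophages. The kinase MAPK14 (p38 alpha) rose 1.18-fold and 1.41-fold. TRAF6, a ubiquitin ligase of the pathway, rose 1.45-fold in macrophages (limma adjusted p = 0.00414), and the kinase IKBKE fell 2.14-fold there (limma adjusted p = 6.42e-05). TRAF5 was called higher in both states but its group means were at most 22.2 units, and in monocytes both lay under the floor.

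Of 13 genes of the CARD9 pathway, 9 were in the table and 6 were tested. The lectin receptor probes CLEC7A, CLEC4E and CLEC6A had no group mean above 13.5 units, below the floor. CLEC5A, another C-type lectin receptor of the list, had group means from 137 to 155 units. It was not called with Dex in either state (limma adjusted p = 0.87 in monocytes and 0.982 in macrophages). BCL10 and MALT1, the partners of CARD9, went opposite ways in macrophages. BCL10 rose from 1002 ± 82.1 units (SD, n = 3) to 1437 ± 31.6 (SD, n = 2), at a log2 change of 0.52 (limma adjusted p = 0.000107). MALT1, a paracaspase, fell from 653 ± 27.0 to 447 ± 22.8 units, at -0.55 (limma adjusted p = 0.000154). In monocytes BCL10 rose 1.19-fold (limma adjusted p = 0.0137), a call that ended in 3 of 24 alternatives, and MALT1 went from 211 units (SD 8.57, n = 3) to 186 without passing (limma adjusted p = 0.0867). PRKCD, a kinase upstream of CARD9, rose 1.20-fold in macrophages, a call that also ended in 3 of 24 alternatives. Over the list, 1 rose and 0 fell in monocytes, and 2 rose and 1 fell in macrophages, with median log2 changes of 0.01 and 0.06, where 39.1% and 47.5% of all tested probes were called.

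**Figure D5:**
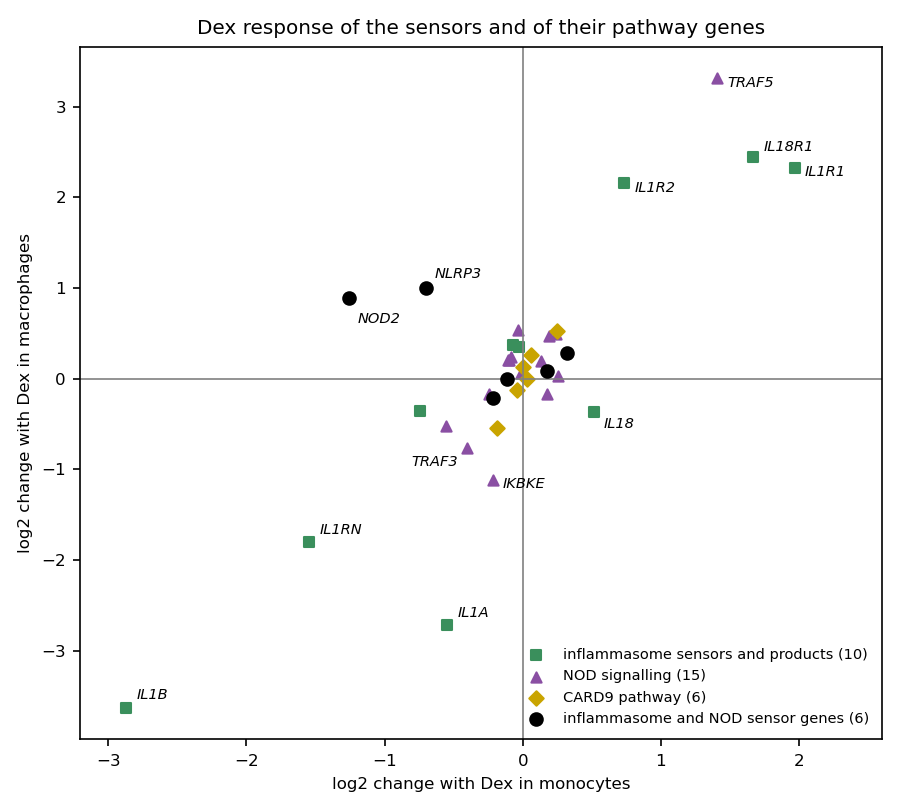
Log2 change with Dex in monocytes (horizontal axis) and macrophages (vertical axis) of the 6 genes and of the tested genes of the 3 pathway lists, a point per probe. NLRP3 and NOD2 lie in the upper left, with a fall in monocytes and a rise in macrophages, IL18 lies in the lower right, and IL1B and IL1RN lie in the lower left. TRAF5, IL18R1 and IL1A are low probes, with no group mean above 22.9 units.

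The patterns over the 11 samples were compared with those of the other tested probes by Pearson r on log2(value + 1). The 11 points fall into 4 groups and each shares its sample factor over all probes, so r is given as a description. Most like NLRP3 were NOTCH2, a Notch receptor (r = 0.97), IL6ST, the signalling chain of the interleukin 6 receptor (0.95), and IKBKG, the regulatory subunit of the IKK complex (0.93). NOTCH2 had 1655 ± 40.6 units in Mono_Control and 1378 ± 19.3 in Mono_Dex (SD, n = 3), against 2156 ± 138 in Mac_Control and 4054 ± 180 in Mac_Dex (SD, n = 3 and 2). Most like CASP1 were GFI1, a transcription repressor (0.98), LILRA2 and MUC1 (0.98 each), and 2 of these, LILRA2 (0.95) and GFI1 (0.94), were also most like NOD1, followed by CD3EAP (0.94). PYCARD was most like BST1 (0.93), STAT4 (0.93) and RUNX1 (0.92), and CARD9 most like CD45RA (0.93), RUNX1 (0.93) and CD70 (0.92). NOD2 had no close match, with C14orf166 highest at 0.77, followed by SLC2A1 (0.72) and TIRAP (0.66). Among the 6 genes themselves, r was highest between CASP1 and NOD1 (0.93) and lowest between NLRP3 and CASP1 (-0.83), and it was 0.62 between NLRP3 and NOD2.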

How the data were processed

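RNA (50 ng per sample) from 11 samples in 4 groups was measured by NanoString nCounter. The authors deposited a linear normalized signal for 608 probes: 594 endogenous, 8 negative and 6 positive controls. Quality control used nSolver, per the labels' series design; which version, normalization genes and background setting they chose is not stated in the labels used here. Low values fell on a regular grid, 100% of them within 0.1 of a step, so a value is a sample factor times a count minus a fractional background; whole counts were not recovered, and no count test was run. Net counts per sample summed to 412520 to 675213, and intervals on them cover counting error only. Replicates had Pearson r from 0.986 to 0.993 and a chi-square per degree of freedom of 1.53 to 16.31 against counting noise taken from net counts. That noise leaves out the subtracted background and is a lower bound, so the lowest values cannot show a disagreement beyond counting noise. Repeat measurements of one RNA could also differ by this much.

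Tests used limma 3.58.1 in R 4.3.3 (lmFit, eBayes with trend) on log2(value + 1), with all 4 groups in a fit, a filter of 20 units on the highest group mean and Benjamini-Hochberg adjustment over 379 probes. The fit was also run on simulated data with independent noise per probe, known changes in Mac_Dex only and no sample factors. That run does not bear on the scaling of the samples. Folds are ratios of group means; means under 20 were raised to 20, which makes the fold a lower bound ("at least"). An exact permutation test of 3 against 3 samples could not go below p = 0.1, and of 3 against 2 not below 0.2, so none was used. Named genes are the 6 of the rule, up to 3 called rises and falls per pathway list and Dex comparison, IL1B, IL18, BCL10, MALT1 and FKBP5, and the 3 probes most like each gene; the lectin receptors, NCAM1, MSR1 and MRC1, and the within-sample ratios, were chosen after values were seen. The B-cell marker list is not reported here. The genes and lists were chosen with earlier results of these data known. Promoter windows are those of RefSeq on GRCh38.p14, matched by symbol for 5 of the 6 genes. Alternatives were the pseudocount, the filter, a floor, the scaling, the variance model, the samples in the fit, the replicate block and leaving out each sample.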

Additional observations from a re-analysis of the deposited data

Results flagged for a closer look

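The Dex responses of NLRP3 and NOD2 differed between the cell states by the interaction term of the fit. For NLRP3 the macrophage response exceeded the monocyte response by 1.70 on the log2 scale (limma adjusted p = 2.69e-07), with each monocyte Dex sample below and each macrophage Dex sample above its vehicle samples. For NOD2 the difference was 2.14 (limma adjusted p = 0.00329), again with no overlap of Dex and vehicle samples in either state. Over all tested probes, Dex and vehicle samples did not overlap for 54.6% in monocytes and 58.6% in macrophages. The NOD2 rise in macrophages by itself (limma adjusted p = 0.0437) lost its call in 9 of 24 alternatives. Groups of 2 or 3 samples are too small for the outlier test used on larger groups, so none was run.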

How the results depend on the processing

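Of the log2 changes of the 6 genes under alternatives, 646 kept their sign and side of the threshold, 29 lost a call, 16 gained one and 23 changed sign; the cause was not tested. With median-centring, 2 of the 6 rose in monocytes, 5 in macrophages, 0 between states with vehicle and 1 with Dex; probes that rose were 104, 152, 149 and 145, and 178 and 168 fell between states. Signs turned for PYCARD in monocytes (0.0324), CARD9 in macrophages (0.00734), NLRP3 between states with vehicle (-0.31), and the differences of NOD1 (0.0432) and CARD9 (0.0766). The share of calls that rose went from 43.2% to 61.5% in monocytes, 47.2% to 67.3% in macrophages, 76.9% to 45.6% and 77.5% to 46.3% between states with vehicle and Dex, and 52% to 63.5% for the difference. Quantile normalization gave 2 rises of the 6 in monocytes, 0 between states with vehicle (NLRP3 -0.32) and 1 with Dex, with 148 rising and 182 falling probes with vehicle and 139 and 184 with Dex (44.8% and 43% rising), and turned the differences of CASP1 (0.0155) and CARD9 (0.0250). The housekeeping list gave 2 rises in monocytes and turned PYCARD in macrophages (-0.00512). A pseudocount of 20 turned the CARD9 difference (0.00215). In macrophages 1 of the 6 rose with no filter, with no variance trend or with only the groups compared; in monocytes 1 and 2 rose with the latter settings.

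Leaving out a sample gave 0 to 1 rises of the 6 in monocytes, 1 to 2 rises and 0 to 1 falls in macrophages, and 2 to 4 falls between states with Dex; 29 to 52 probes were more negative in the difference. Where a lone Mac_Dex sample remained, it was assumed to vary like the other groups. Ranges that crossed 0 were those of PYCARD (-0.0396 to 0.0252) and CASP1 (-0.0122 to 0.181) in macrophages, and of the differences of CASP1 (-0.186 to 0.00796), NOD1 (-0.139 to 0.0634) and CARD9 (-0.180 to 0.176).

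The label numbers were tried as a replicate block. Same-numbered samples correlated in their deviations at 0.23 and 0.18 in monocytes, -0.28 and -0.42 in macrophages and 0.14 and -0.03 between states with vehicle. Deviations within a group of 2 or 3 samples are tied to each other. These values therefore cannot show whether same-numbered samples were handled together. With the replicate block 1 of the 6 fell between states with Dex, a comparison in which no number occurs in both groups. Mono_Dex replicate 2 was the only sample with its number, so its block term took it up fully. The block also left fewer degrees of freedom, so a lost call here is not the result of a pairing. PYCARD (-0.24, limma adjusted p = 0.23), NOD1 (-0.63, limma adjusted p = 0.0576) and CARD9 (-0.44, limma adjusted p = 0.119) lost the call. Over all tested probes 43 fell with the block, beside 68 without it. NOD2 lost the call with vehicle (-0.43, limma adjusted p = 0.269). In the same fit 28 and 21 probes had a more positive and more negative difference, PYCARD in macrophages turned (-0.0142), and NLRP3 and NOD2 differences were 1.67 and 2.24. NOD2 rested on at most 130 net counts in any sample, and the part of counting error in its lost calls was not tested.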
